A study of Mus musculus with 24 samples.

Results

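Over 6 h of retinoic acid (RA), 54 genes rose in mouse embryonic stem cells (ESCs), with more RNA at 6 than at 3 h. They were chosen from 26264 genes in the table of estimated counts. A gene was taken when its mean at 6 h was at least 2 times its mean at 0 h and at least 1 CPM in each of 2 clones, and when its 6 h mean over both clones was at least 1.5 times its 3 h mean. Ratios were formed after adding 0.1 CPM, where CPM are counts scaled to the same total in every library. The first criteria were met by 217 genes and the late one by 81 of these. Of those 81, 27 were left out by symbol, since the choice dropped Hox, Cyp, Rar, Wnt, Cdx, Gata, Meis and other symbol families, among them Fos, Jun, Egr and Dusp. A further 125 induced genes, with the same exclusions, did not pass the late criterion. The RA times chose these genes, so their rise with RA is described here without a test. The arms with and without auxin were averaged by the choice, which did not compare them, and the effect of auxin was tested. Averaging does not make the choice free of the arms, since a gene can pass through the arm where it is high. On the libraries without auxin alone the choice kept 41 of the 54, and on those with auxin alone 46.

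The libraries came from 2 monoclonal E14 ESC lines. In BAP1-AID cells, CRISPR-Cas9 placed an HA-AID degron tag at the C terminus of BAP1, a deubiquitinase for histone H2A. In UTX-AID cells the same tag sat at the N terminus of UTX (Kdm6a), a histone H3K27 demethylase. Both lines stably overexpress TIR1, the plant ubiquitin ligase adaptor that, with the auxin indole-3-acetic acid (IAA), sends tagged proteins for degradation. Cells received 100 μg/ml IAA (+IAA) or none (-IAA) for 2 h, and then 2 μM RA in medium without LIF for 0, 3 or 6 h. Each of the 12 groups held 2 replicate libraries. No group was kept for 3 or 6 h without RA, so RA, loss of LIF and time in the medium cannot be told apart. Since each protein was tagged in 1 clone, a difference between the lines cannot be told apart from a difference between clones. The degron removes protein, so RNA levels of Bap1 and Kdm6a do not check it. Nothing in the sources used here says that replicates were separate cultures, and p-values measure the spread between these libraries only.

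RA is the vitamin A metabolite that patterns the embryonic body axis and drives ESCs out of pluripotency. It binds the RA receptors, which pair with the retinoid X receptors and sit on DNA at direct repeats of a short half-site. The best known direct targets, such as the Hox genes and the RA-degrading Cyp26 enzymes, respond within hours, and later layers of the response include genes that need newly made regulators. The members are described below by what their products do, from receptors and signals to transcriptional regulators, membrane channels, cytoskeletal proteins and enzymes.

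The libraries held 42018795 to 54034789 counts, so that 3 counts correspond to 0.0555 to 0.0714 CPM. All 10 pluripotency markers had means above 1 CPM at each RA time in both lines. Summed fibroblast markers reached 2.55 to 13.5 CPM, primitive endoderm markers 19.8 to 36.3 CPM and trophoblast markers 16.4 to 31.3 CPM. Summed two-cell-like markers stood at 0.569 to 1.60 CPM in BAP1-AID and 16.4 to 31.0 CPM in UTX-AID. The lines therefore differed in this marker set, and its part in the differences between lines below was not tested. Of the established RA targets on a fixed list, 21 of 27 tested in BAP1-AID against 17 of 26 in UTX-AID were called higher at 6 than at 0 h, and 0 were called lower.

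Direct repeats of the RA receptor half-site were searched in the gene-start windows of the 51 members matched by symbol to GENCODE vM39. The motif was a pair of GGTCA or GTTCA half-sites in the same orientation, with 6 letters (DR5), 3 letters (DR2) or 2 letters (DR1) between the 5-letter cores, on either strand. From 250 bases before to 50 after the start, 1 member held a DR5 (1.96%, against 0.159% of 23897 genes) and 1 held a DR2 (1.96%, against 0.255%). No member held a DR1 there, against 0.360% of all genes. In the wider window of 1000 bases on each side, DR5 was found at 2 members (3.92%, against 1.37% of all genes) DR2 at 2 (3.92%, against 2.10%) and DR1 at 3 (5.88%, against 2.13%). The shares among the members rest on 1 to 3 genes each. The stretches at 4 members are shown as examples of DR5 and DR2 matches, on the strand of the gene with the half-sites in capitals. Csn3 encodes the milk protein kappa-casein, and its match lies 98 to 83 bases before the start (GRCm39 chr5:88073280-88073415, plus strand). Ano1 encodes a calcium-activated chloride channel, with a match 31 to 19 bases before the start (GRCm39 chr7:144292352-144292442, minus strand). Arg1 encodes the urea cycle enzyme arginase, with a match 797 to 782 bases before the start (GRCm39 chr10:24804238-24804373, minus strand). Calcoco2 encodes an autophagy receptor, with a match 543 to 531 bases before the start (GRCm39 chr11:96003289-96003421, minus strand). A match in letters does not show that a receptor binds there.
Csn3 DR5: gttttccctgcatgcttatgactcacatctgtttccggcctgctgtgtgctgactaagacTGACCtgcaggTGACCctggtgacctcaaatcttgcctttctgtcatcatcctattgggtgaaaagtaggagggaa
Ano1 DR2: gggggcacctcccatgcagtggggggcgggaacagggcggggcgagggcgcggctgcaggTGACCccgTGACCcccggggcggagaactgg
Arg1 DR5: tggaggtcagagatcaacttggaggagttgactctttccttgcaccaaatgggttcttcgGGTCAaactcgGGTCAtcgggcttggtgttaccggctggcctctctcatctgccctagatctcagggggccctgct
Calcoco2 DR2: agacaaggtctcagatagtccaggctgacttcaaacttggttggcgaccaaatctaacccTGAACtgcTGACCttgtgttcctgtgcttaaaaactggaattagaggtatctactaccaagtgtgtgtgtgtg

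The means of the 54 genes rose from 0 to 6 h in both lines, but by different amounts. For Gm2260 in UTX-AID the rise rests on 1 library, and its median was 0.108 CPM at 0 h and 0.102 CPM at 6 h. The median gene was 7.49 times its 0 h level at 6 h in BAP1-AID against 3.97 times in UTX-AID. By 3 h it had covered 38.8% of its 0 to 6 h rise in BAP1-AID and 55.2% in UTX-AID. The median late step, the ratio of the 6 h to the 3 h mean, was 1.97 in BAP1-AID against 1.52 in UTX-AID. In UTX-AID some genes hardly rose after 3 h, with late steps of 0.989 for Ptpru, 1.05 for Ptprz1 and 1.12 for Lrrk1. The late step was larger in BAP1-AID for 50 of the 54 genes and the whole rise for 51. These ratios chose the genes, and genes could enter through BAP1-AID, so nothing is read from the difference between the lines. The median starting levels were alike, at 0.936 CPM in BAP1-AID against 1.02 CPM in UTX-AID at 0 h, and 27 genes were higher in each line. Single genes differed more, with ratios of BAP1-AID to UTX-AID at 0 h from 0.230 to 2.94 (quartiles 0.594 and 1.54). At 6 h the median levels were 8.26 and 4.37 CPM.

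**Figure D1:**
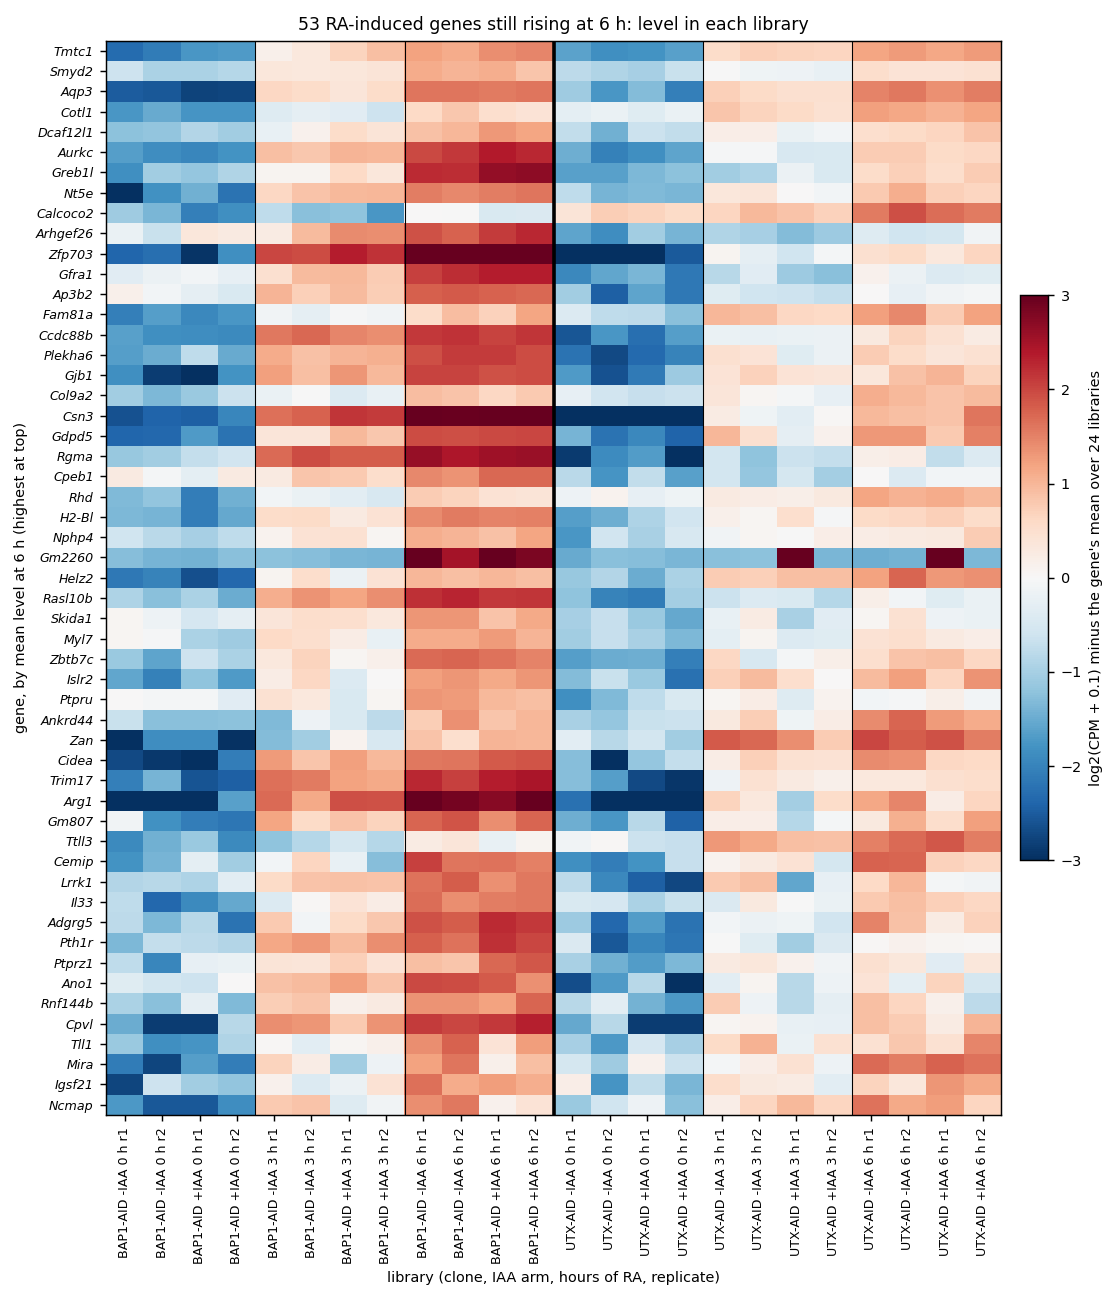
Level of 53 of the 54 genes (rows) in the 24 libraries (columns, grouped by line, hours of RA and IAA arm), as log2(CPM + 0.1) minus the mean of the gene over all libraries. Colours run from below to above the mean of the gene, and of all 54 genes, 54 in BAP1-AID against 52 in UTX-AID have their 4 libraries at 6 h above the 4 at 0 h, beside 10.4% and 9.76% of all genes with a 6 h mean of at least 1 CPM.

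In BAP1-AID the 4 libraries at 6 h lay above the 4 at 3 h for 52 of 54 genes, beside 5.52% of all genes with a 6 h mean of at least 1 CPM there. In UTX-AID this held for 32, beside 3.41%, and 31 were shared by both lines. These values chose the genes, and nothing is read from the counts. Since the late criterion used the mean over both lines, a gene could enter through BAP1-AID: 53 genes reached 1.5 in BAP1-AID, 30 in UTX-AID and 29 in both. In the fit across all genes, 22 of 54 members passed adjusted p under 0.05 with an absolute log2 change over 1 from 3 to 6 h in BAP1-AID, where 0.414% of all genes did so upward, and 4 passed in UTX-AID, where 0.0676% did. The choice of genes used this contrast, and nothing is read from these counts.

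**Figure D2:**
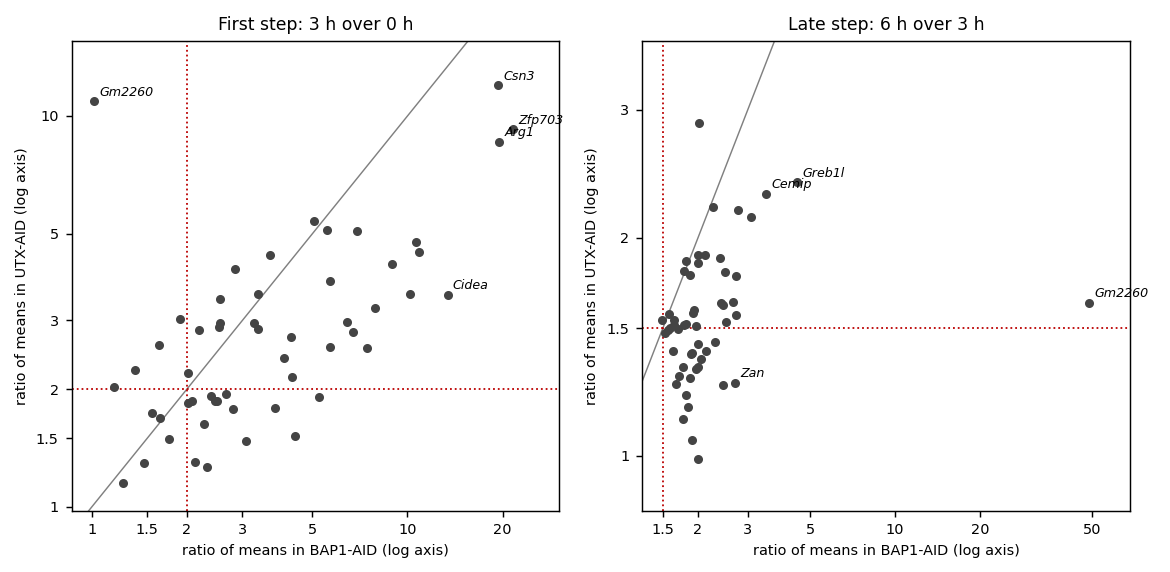
Ratio of the mean at 3 h to that at 0 h (left) and of the mean at 6 h to that at 3 h (right) for each of the 54 genes, BAP1-AID on the horizontal and UTX-AID on the vertical log axis, with the diagonal in grey and dotted lines at 2 (left) and 1.5 (right). In the right panel 50 of the points lie below the diagonal, and 30 lie at or above the line for UTX-AID.

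The choice ends in a continuum. The late ratio over both lines was 1.501 for Ccdc88b, 1.502 for Ncmap and 1.51 for Lrrk1, just inside, and 1.49 for Cuedc1 and 1.48 for Dmrt1 and Kit, just outside. The lowest 6 h over 0 h ratio in a line was 2.001 for Ptpru. In UTX-AID, 6 members pass the 2-fold criterion only with their highest 6 h library: Calcoco2, Arhgef26, Cpeb1, Skida1, Ptpru and Gm2260.

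Receptors and cytoskeletal or GTPase genes were the largest of the role lists, with 5 members each. Gfra1, the co-receptor for the neurotrophic factor GDNF, read 25.04 and 28.0 CPM in the -IAA and 31.0 and 30.8 CPM in the +IAA libraries at 6 h in BAP1-AID, after 8.31, 11.6, 11.7 and 10.1 CPM at 3 h. In UTX-AID it read 6.54, 5.25, 4.43 and 4.57 CPM at 6 h, and 3.31, 4.65, 2.76 and 2.43 CPM at 3 h. All 4 libraries at 6 h were above all 4 at 3 h in BAP1-AID, whereas in UTX-AID the 2 sets overlapped. Adgrg5, an adhesion G protein-coupled receptor, went from 0.392 through 1.55 to 4.48 CPM in BAP1-AID and from 0.234 through 0.855 to 1.99 CPM in UTX-AID, a late ratio of 2.56 over both lines. The receptor tyrosine phosphatase Ptpru had no late step in UTX-AID, with 3.52 CPM at 3 h and 3.48 CPM at 6 h, and entered through its rise from 3.81 to 7.72 CPM in BAP1-AID. Pth1r, the parathyroid hormone receptor, had means of 4.71 CPM in BAP1-AID against 1.23 CPM in UTX-AID at 6 h. A single secreted signal was found, the interleukin-1 family cytokine Il33, which went from 0.403 through 1.44 to 4.13 CPM in BAP1-AID and from 0.836 through 1.28 to 2.35 CPM in UTX-AID.

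Among transcriptional regulators there were 3 members and no homeodomain gene, Hox and related symbols having been left out by the choice. Zfp703, a zinc finger corepressor, was nearly silent before RA, with 0.440 and 0.481 CPM without and 0.265 and 0.679 CPM with IAA in BAP1-AID. At 3 h these libraries read 11.2, 10.7, 14.2 and 12.4 CPM, and at 6 h 30.3, 33.7, 33.6 and 32.7 CPM. In UTX-AID the gene went from 0, 0.141, 0.134 and 0.387 CPM through 2.88, 2.201, 1.74 and 2.59 CPM to 3.82, 4.08, 3.38 and 4.29 CPM. The 3 times did not overlap in either line, and the 6 h level was 57.7 times the 0 h level in BAP1-AID against 15.1 times in UTX-AID. The other two, Skida1 and the BTB zinc finger gene Zbtb7c, reached 8.73 and 8.04 CPM in BAP1-AID and 4.01 and 4.22 CPM in UTX-AID.

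Greb1l, a gene required for kidney development, had the largest late ratio over both lines, 3.75, after Gm2260, at 5.66. In BAP1-AID it read 2.09, 3.65, 3.38 and 4.09 CPM at 0 h (-IAA replicates first), 8.20, 8.10, 11.6 and 9.71 CPM at 3 h and 36.3, 35.8, 48.0 and 50.2 CPM at 6 h. In UTX-AID the values were 2.42, 2.41, 2.97 and 3.21 CPM, then 3.67, 3.99, 6.77 and 5.54 CPM, then 11.2, 12.7, 11.1 and 13.2 CPM. The late ratio was 4.49 in BAP1-AID against 2.39 in UTX-AID, so that most of the rise came after 3 h in both. Cemip, which binds and degrades hyaluronan, had a late ratio of 3.48 and 2.30, from 1.10 to 4.07 CPM in BAP1-AID and from 1.28 to 3.06 CPM in UTX-AID. Ankrd44, an ankyrin repeat subunit of a protein phosphatase, was higher in UTX-AID, with 6.30 CPM against 4.74 CPM at 6 h.

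**Figure D3:**
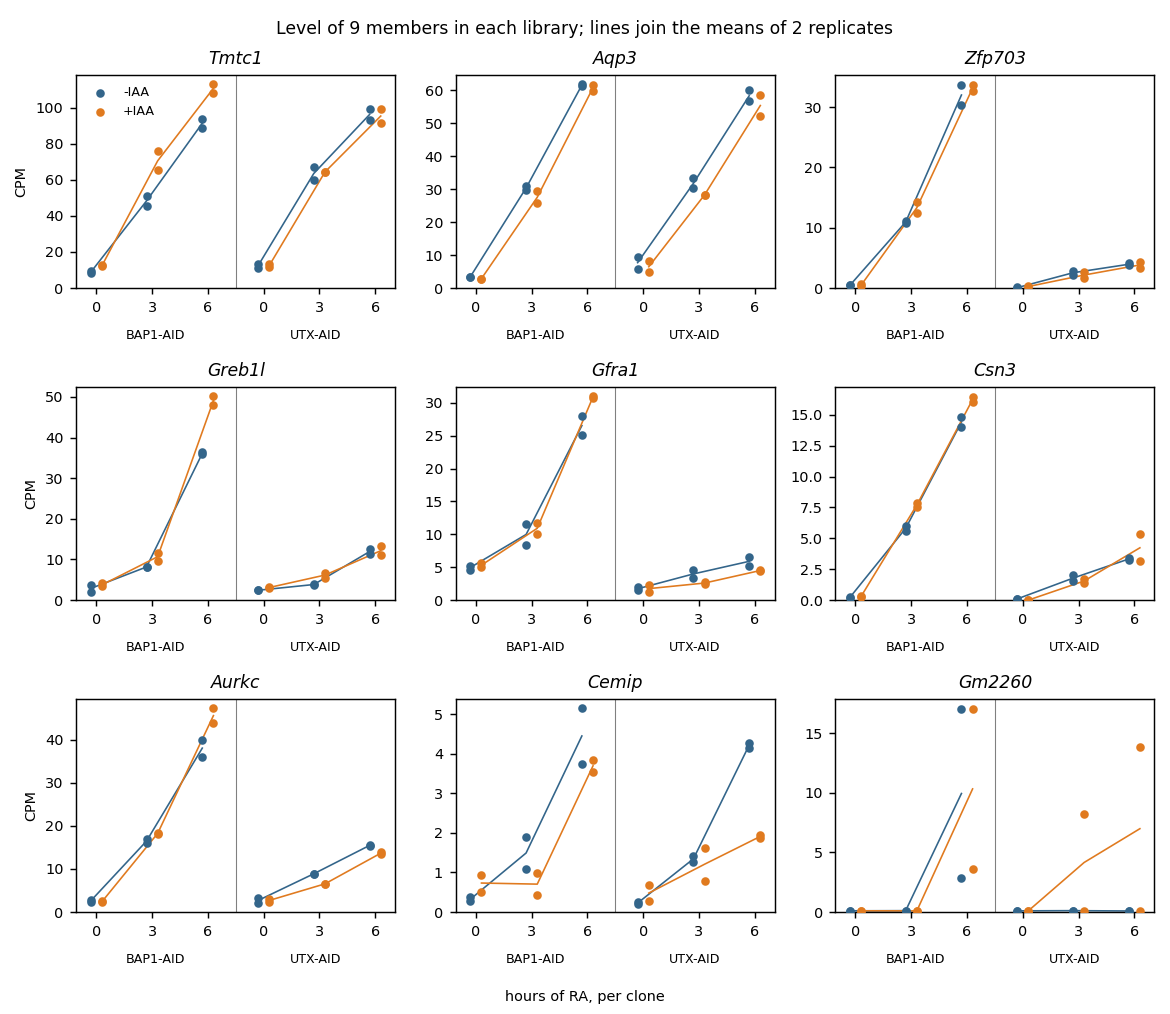
CPM in each library of 9 genes against hours of RA, points for libraries and lines through the arm means, with the 2 lines side by side and IAA arms in colour. Greb1l goes from a 3 h mean of 9.41 to 42.6 CPM in BAP1-AID, and Gm2260 in UTX-AID is high in 1 library at 3 h and 1 at 6 h.

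Membrane channels gave 3 members. Aqp3, the aquaglyceroporin, had 3.48, 3.37, 2.86 and 2.89 CPM at 0 h in BAP1-AID, 31.0, 29.7, 25.7 and 29.4 CPM at 3 h and 61.3, 61.8, 59.8 and 61.7 CPM at 6 h. In UTX-AID it went from 9.52, 5.91, 8.16 and 4.78 CPM through 33.3, 30.2, 28.3 and 28.2 CPM to 56.7, 59.96, 52.1 and 58.7 CPM. Both lines arrived at nearly the same level, and all 3 times stood apart in each. Gjb1, the gap junction protein connexin 32, reached 15.9 CPM in BAP1-AID but 6.71 CPM in UTX-AID, where its step from 3 h was 1.21. Ano1 reached 3.52 and 1.04 CPM. Of adhesion and matrix genes, Col9a2, a chain of cartilage type IX collagen, had late ratios of 2.01 and 1.89 and reached 10.4 and 11.7 CPM, and the adhesion molecule Igsf21 reached 1.57 and 1.185 CPM.

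Of the 5 genes on the cytoskeletal and GTPase list, Arhgef26, Plekha6, Rasl10b and Myl7 had lower 6 h means in UTX-AID than in BAP1-AID. The phosphatase subunit gene Ankrd44, placed on this list by its symbol alone, had a higher one. Arhgef26, a guanine nucleotide exchange factor, had means of 7.69, 16.4 and 31.7 CPM in BAP1-AID and 2.79, 3.65 and 5.85 CPM in UTX-AID. Plekha6, a pleckstrin homology domain protein, reached 17.6 and 6.22 CPM, and the small GTPase gene Rasl10b 10.9 and 2.14 CPM. Myl7, the atrial myosin light chain (chr11:5845449-5848792), reached 7.84 and 4.53 CPM. Cotl1, an actin-binding protein outside these symbol lists, went the other way, with 27.7 CPM in BAP1-AID against 41.0 CPM in UTX-AID.

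Enzymes held some of the members with the most counts. Tmtc1, an endoplasmic reticulum glycosyltransferase of cadherins, had the most: 93.8, 88.9, 108 and 113 CPM at 6 h in BAP1-AID, after 45.7, 50.9, 65.2 and 75.8 CPM at 3 h and 8.11 to 12.6 CPM at 0 h. In UTX-AID it read 93.1, 99.2, 91.4 and 99.2 CPM at 6 h, after 59.7, 67.3, 64.5 and 64.2 CPM at 3 h and 11.3 to 13.5 CPM at 0 h. Its courses were alike in the 2 lines. Smyd2, a lysine methyltransferase, reached 73.1 and 49.5 CPM, and Nt5e, the ectonucleotidase that forms adenosine, 28.6 and 17.5 CPM. Aurkc, the Aurora kinase of meiotic germ cells, climbed from 2.50 through 17.4 to 41.8 CPM in BAP1-AID and from 2.70 through 7.72 to 14.6 CPM in UTX-AID. Gdpd5, a phosphodiesterase that releases membrane-anchored proteins, reached 10.8 and 6.54 CPM, 17.2 and 9.10 times its 0 h level. Arg1 was close to 0 before RA, at 0.0449 and 0.0212 CPM, and reached 6.87 and 1.58 CPM.

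Csn3, which carries the DR5 nearest to a start, read 0.191, 0.241, 0.228 and 0.359 CPM at 0 h in BAP1-AID, 5.58, 6.04, 7.82 and 7.57 CPM at 3 h and 14.8, 13.99, 15.995 and 16.5 CPM at 6 h. In UTX-AID it went from 0.127, 0.0603, 0 and 0 CPM through 2.02, 1.53, 1.35 and 1.74 CPM to 3.42, 3.24, 3.13 and 5.33 CPM. The 3 times stood apart in both lines, with late ratios of 2.25 and 2.204. Calcoco2 was higher in UTX-AID at all times, with 15.2, 17.5 and 32.5 CPM against 3.41, 4.31 and 8.73 CPM in BAP1-AID, and nearly all of its rise came after 3 h. Dcaf12l1, related to substrate receptors of a ubiquitin ligase, reached 36.04 and 26.2 CPM.

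Unnamed and non-coding genes gave few members. Gm807, a lncRNA, reached 5.16 and 2.77 CPM. Mira, also a non-coding RNA, had 2.01 CPM at 6 h in UTX-AID and 1.296 CPM in BAP1-AID, and the late ratio in UTX-AID, 2.87, was the highest of the 54 there. Gm2260 stood at about 0.1 CPM at 0 h in all libraries. At 6 h in BAP1-AID it read 17.0 and 2.86 CPM without and 17.1 and 3.60 CPM with IAA. In UTX-AID 1 +IAA library at 3 h read 8.22 CPM and 1 +IAA library at 6 h 13.9 CPM, while the other libraries stood at or below 0.122 CPM. Without the high 6 h library the 6 h over 0 h ratio in UTX-AID was 0.964, so this gene passes the 2-fold criterion in that line through 1 library. No role list took 32 of the 54 genes.

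Sequence features that the choice did not use were set beside those of the 125 induced genes that did not pass the late criterion and of all genes. The median canonical transcript was 3643 bases long with 10 exons for the members, 3604.5 bases with 7 exons for the other induced genes and 2504 bases with 6 exons for all genes. Median promoter GC content was 57%, 62.5% and 54.3%, and the median ratio of observed to expected CpG was 0.465, 0.600 and 0.5. A TATAAA stood within the window from 250 bases before to 50 after the start at 9 members (17.6%), 9 other induced genes (7.5%) and 12.2% of all genes. None of these differences was tested. Of the 51 matched members, 50 were protein-coding, and chromosome 7 held 8 of them (15.7%, against 8.33% of all genes). Ap3b2 (chr7:81110147-81143952) and Cpeb1 (chr7:80996774-81105213) lie 4933 bases apart on the minus strand, a pair chosen after the positions were seen.

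Whether loss of BAP1 or UTX changed the late genes was asked by comparing the arms with and without IAA, which the choice had averaged. No line without a degron was among the libraries. An effect of IAA itself therefore cannot be told apart from loss of the tagged protein. The time since IAA was added also grew with RA time, so averages over RA times join different times after IAA. All 54 members entered the fits, because the choice required a level. In BAP1-AID 2 members were called at 0 h, Trim17 and Myl7, both lower with IAA, beside 1.15% of all genes in either direction. Trim17, an E3 ubiquitin ligase of the tripartite motif family (chr11:58844920-58864446), read 0.268 and 0.481 CPM without and 0.152 and 0.180 CPM with IAA, from 14, 24, 8 and 9 counts. The arms did not overlap. The log2 change was -1.13 ± 0.34 (SE, edgeR's quasi-likelihood test, adjusted p = 0.0390), and it rests on few reads and on a locus that overlaps histone genes. Myl7 read 3.67 and 3.39 CPM without and 1.76 and 1.62 CPM with IAA, again without overlap. Its log2 change was -1.03 ± 0.19 (adjusted p = 0.00249, edgeR), and at 6 h the arms overlapped, at 7.73 and 7.68 against 8.70 and 7.24 CPM. Leaving out a library ended the Trim17 call in 9 of 12 cases, with changes of -1.49 to -0.66 over all 12, and the Myl7 call in 2, without the second +IAA (-0.95) or the first -IAA (-0.96) replicate at 0 h.

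At the RA times the members were not called by edgeR in BAP1-AID. At 3 h 0 of 54 were called by edgeR (0.892% of all genes) and 0 by DESeq2. Shares of all genes called are from the edgeR fits, and none is given for DESeq2. There 10 had an unadjusted edgeR p under 0.05 (18.5%, against 28.4% of all genes). At 6 h 0 were called by edgeR (1.61% of all genes) and 1 by DESeq2, Ptprz1. There 5 had an unadjusted edgeR p under 0.05 (9.26%, against 25.7% of all genes). Averaged over the 3 times 0 were called (1.51%), 16 members had an unadjusted p under 0.05 (29.6%, against 44.5% of all genes), and DESeq2 called 1, Arg1. Over 3 and 6 h alone 0 were called (1.31%), with 11 at an unadjusted p under 0.05 (20.4%, against 37.1% of all genes). Some small differences had low p-values but missed the 2-fold criterion. Tmtc1 was 0.48 ± 0.05 higher with IAA on the log2 scale (adjusted p = 3.42e-05, edgeR), with every +IAA library above every -IAA library at each time. Arhgef26 was 0.65 higher (adjusted p = 0.000647, edgeR), Dcaf12l1 0.39 higher (adjusted p = 0.000755) and Greb1l 0.44 higher (adjusted p = 0.00554), while Calcoco2 was -0.52 (adjusted p = 0.00640). The median over the 54 members was 0.04, beside -0.04 over all genes. It was the same when Arg1, at 0 in an arm, was set against a floor of 3 counts per library.

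**Figure D4:**
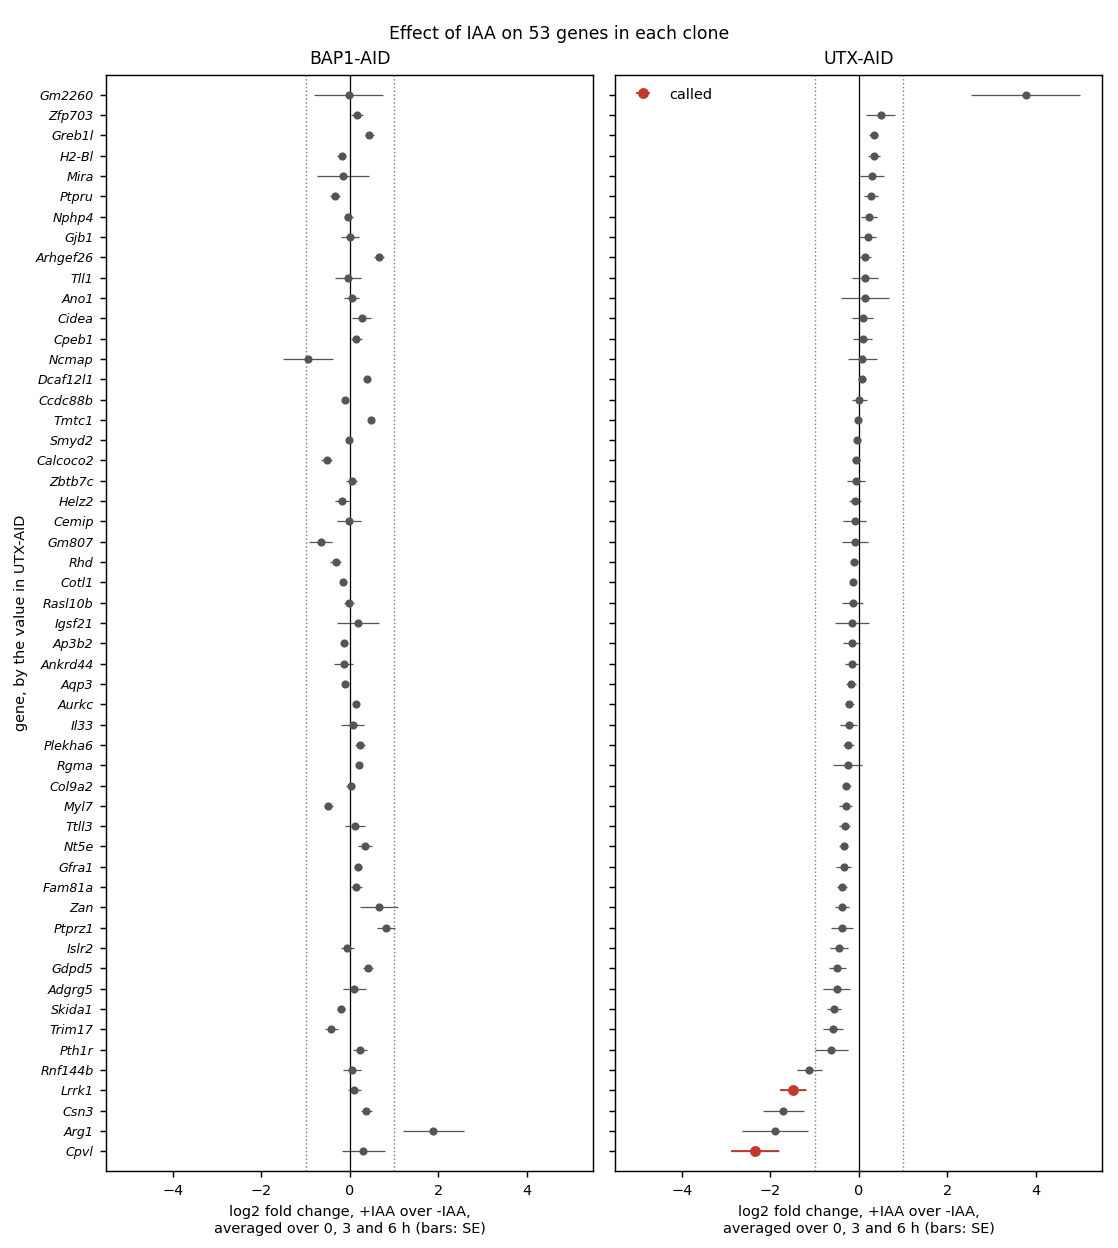
Effect of IAA on 53 of the 54 genes averaged over the RA times, as log2 of +IAA over -IAA with its standard error, 1 panel per line. Members called at adjusted p under 0.05 with an absolute log2 change over 1 are red, which are 0 in BAP1-AID and Lrrk1 and Cpvl in UTX-AID.

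In UTX-AID averaged over the times 2 members were called lower with IAA, Lrrk1 and Cpvl, beside 0.135% of all genes. An unadjusted edgeR p under 0.05 was found for 20 members (37.0%, against 15.6% of all genes). The median over the 54 members was -0.14 on the log2 scale, beside -0.002 over all genes, and 16 were above 0. DESeq2 called 3, Lrrk1, Rnf144b and Gm2260, without a share of all genes to set beside them, and gave Cpvl no adjusted p. Lrrk1, a kinase important in bone-resorbing osteoclasts (chr7:65876660-66038118), read 0.828 and 0.322 CPM without and 0.192 and 0.142 CPM with IAA at 0 h. At 3 h it read 2.64 and 2.91 against 0.444 and 1.253 CPM, and at 6 h 2.31 and 3.08 against 1.43 and 1.38 CPM. Every -IAA library was above every +IAA library at each time. The averaged log2 change was -1.48 ± 0.29 (edgeR's quasi-likelihood test, adjusted p = 0.0146), and the call held without any 1 of the 12 libraries. Over 3 and 6 h alone it was -1.34 (adjusted p = 0.0772, edgeR). There 1 member was called (0.0615% of all genes), Gm2260, higher with IAA through 1 library at 3 h and 1 at 6 h. That 6 h library also let Gm2260 pass the choice in UTX-AID, so nothing is read from this call.

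Cpvl, a serine carboxypeptidase (chr6:53850264-53955656), was called from its 0 h libraries. They read 0.149 and 0.301 CPM without IAA and 0 in both +IAA libraries, at least 3.80-fold lower against a floor of 3 counts per library. At 3 h the arms were 0.643 and 0.672 against 0.518 and 0.505 CPM, and at 6 h 1.24 and 1.11 against 0.754 and 1.36 CPM, which overlap. The fitted average of -2.35 ± 0.54 (adjusted p = 0.0340, edgeR) depends on the prior count. Over 3 and 6 h alone it was -0.27 (adjusted p = 0.875, edgeR), and the call was lost in 10 of 12 fits without 1 library, with values of -2.51 to -2.14 and adjusted p = 0.0959 at most.

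At single times in UTX-AID 0 members were called by edgeR at 0 h (0.0184% of all genes), 3 h (0.0430%) or 6 h (0.0123%). DESeq2 called 1 at 0 h, Cpvl, and 0 at 3 and 6 h. An unadjusted edgeR p under 0.05 was found for 12 members at 0 h (22.2%, against 8.01% of all genes). This held for 13 at 3 h and for 3 at 6 h (5.56%, against 6.26%). At 3 h the members leaned to lower values with IAA without being called singly. Their median change was -0.25 on the log2 scale against -0.00 over all genes, 12 of 54 were above 0, and 24.1% had an unadjusted p under 0.05 against 9.33% of all genes. Relative to the mean of the 4 libraries, the median member was 0.12 and 0.12 in the -IAA and -0.06 and -0.11 in the +IAA libraries, which did not overlap. The 125 other induced genes moved the same way, with 0.08 and 0.03 against -0.08 and -0.06. At 6 h the members' median was -0.09.

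The late step itself was compared between the arms. In BAP1-AID the median log2 step from 3 to 6 h was 1.01 without and 1.03 with IAA, and in UTX-AID it was 0.55 and 0.73. The difference of the steps was called for 0 of 54 members in BAP1-AID (0.0956% of all genes). It was called for 0 in UTX-AID (0% of all genes), and DESeq2 called 0 in both. An unadjusted edgeR p under 0.05 was found for 3 members in BAP1-AID (5.56%, against 8.14% of all genes). In UTX-AID it was found for 2 (3.70%, against 3.80%). The 0 to 6 h response gave 0 calls in BAP1-AID (0.0255%) as in UTX-AID (0%), and 0 by DESeq2. For this response 6 members had an unadjusted edgeR p under 0.05 in BAP1-AID (11.1%, against 10.3% of all genes). In UTX-AID 9 members did (16.7%, against 3.43%). For Greb1l the difference of late steps was 0.06 ± 0.24 in BAP1-AID against -0.66 ± 0.24 in UTX-AID (edgeR's unadjusted p = 0.0139, adjusted p = 1.00). For Zfp703 it was -0.23 ± 0.22 and 0.19 ± 0.61, and for Aqp3 0.12 ± 0.11 and 0.09 ± 0.25. The median standard error over the members was 0.29 in BAP1-AID against 0.44 in UTX-AID, so differences of this size were not detectable for a typical member.

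Lines differed in the IAA effect for 6 of the 54 members in a fit of all 24 libraries, beside 2.22% of all genes. These were Lrrk1, Ptprz1, Rnf144b, Csn3, Arg1 and Cpvl, each higher in BAP1-AID than in UTX-AID. Lrrk1 differed by 1.61 ± 0.33 (edgeR, adjusted p = 0.000807), with BAP1-AID arms that overlapped at 0 and 3 h. At 6 h they lay apart and were lower with IAA, at 4.88 and 5.58 CPM without against 4.07 and 4.72 CPM with IAA. Ptprz1, a receptor tyrosine phosphatase of neural cells (chr6:22875358-23054236), read 2.24 and 2.11 CPM without and 4.02 and 4.43 CPM with IAA at 6 h in BAP1-AID, and 1.63 and 1.48 against 0.889 and 1.47 CPM in UTX-AID. Its difference was 1.22 ± 0.32 (edgeR, adjusted p = 0.00619). Rnf144b, a RING-type ubiquitin ligase (chr13:47276132-47401467), read 2.13 and 1.78 against 1.22 and 0.595 CPM in UTX-AID at 6 h, and 2.95 and 2.96 against 2.67 and 3.91 CPM in BAP1-AID, a difference of 1.18 ± 0.36 (edgeR, adjusted p = 0.0188). Csn3, Arg1 and Cpvl each had an arm at 0 counts at 0 h. Restricted to 3 and 6 h, 2 members were called (1.86% of all genes), Lrrk1 and Gm2260, the latter through 1 UTX-AID library at 3 h and 1 at 6 h. That 6 h library also let Gm2260 pass the choice. The difference between the lines in the IAA effect on the late step was called for 0 members by edgeR and by DESeq2, where 0.214% of all genes were called.

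**Figure D5:**
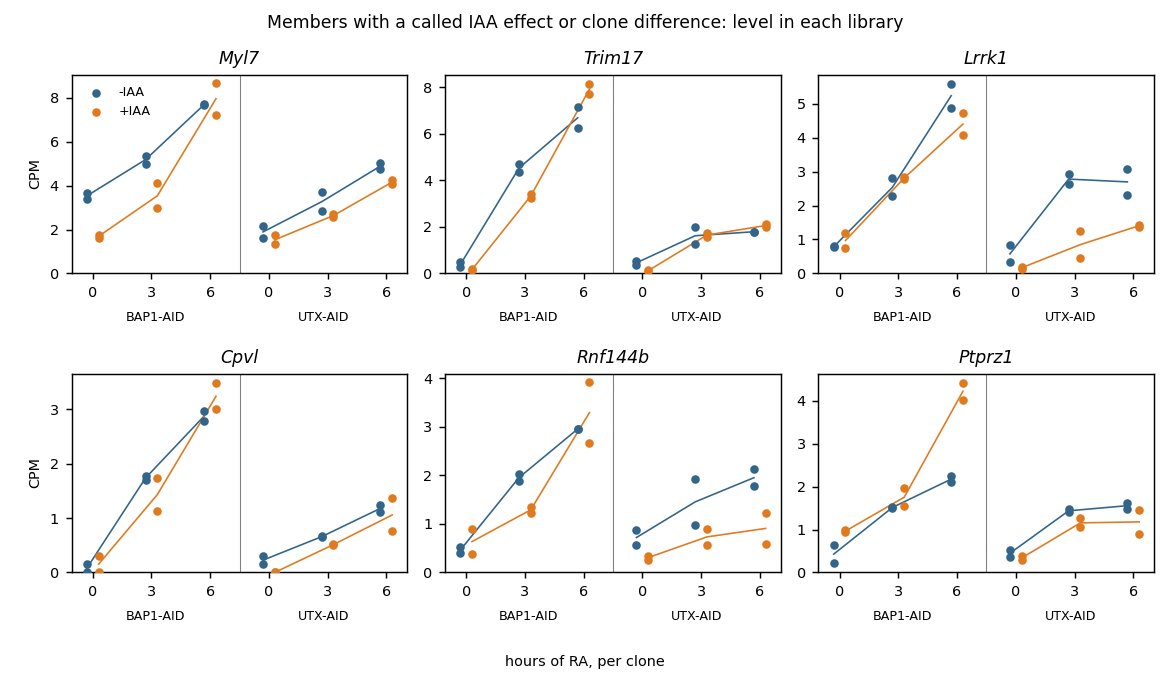
CPM in each library of 6 members with a called effect of IAA or a called difference between the lines, against hours of RA, with -IAA and +IAA in 2 colours, lines through the arm means, and BAP1-AID left of UTX-AID in each panel. In UTX-AID the -IAA libraries of Lrrk1 all lie above the +IAA libraries at the same time. The arms of Myl7 in BAP1-AID lie apart at 0 and 3 h but not at 6 h.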

How the data were processed

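RNA was poly(A)-selected with oligo-dT from 24 libraries. The authors aligned reads to mm39 with HISAT2 2.2.1 and deposited expected counts (estimated counts) per gene from StringTie 2.2.1. SAMtools 1.19 and deepTools 3.5.4 are also named in the submitters' processing notes. The annotation and strand setting were not given in the sources used here. The deposited values are whole numbers, and no column was left unmapped. CPM was computed from column sums. Each line was fitted with edgeR 4.0.16 (R 4.3.3; TMM, filterByExpr with a minimum count of 10 and total of 15, one coefficient for each group, quasi-likelihood test) over 12 libraries, and differences between lines over all 24. P-values were adjusted by Benjamini-Hochberg over all genes, and genes were called at adjusted p under 0.05 with an absolute log2 change over 1. DESeq2 1.42.0 was an alternative. On simulated BAP1-AID libraries with 200 genes changed by a log2 change of 2, the averaged IAA contrast recovered 175 with 1 false call of 15268 genes, and the late-step contrast 133 with 0 false calls of 15267.

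Members and lists were chosen with earlier results of these data known. The genes named were the 10 members highest in CPM at 6 h, in late ratio and in the smaller 6 h over 0 h ratio, the 3 nearest the late threshold on each side, every member with a called IAA effect, and up to 4 per role list. Ap3b2 and Cpeb1 were named after their values were seen. A member counted among the 54 is not reported here by name. Positions are from GENCODE vM39 (GRCm39, the same assembly as mm39). The genes H2-Bl, Mira and Gm2260 did not match by symbol.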

Additional observations from a re-analysis of the deposited data

Results flagged for a closer look

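For 6 members the effect of IAA averaged over the RA times differed between the lines when that difference was tested (edgeR's quasi-likelihood test, all 24 libraries). The difference, BAP1-AID minus UTX-AID on the log2 scale, was 1.61 for Lrrk1, 1.22 for Ptprz1, 1.18 for Rnf144b, 2.10 for Csn3, 2.67 for Cpvl and 3.80 for Arg1. The fitted values of the last 3 depend on the prior count, because groups at 0 h had 0 counts. Against a floor of 3 counts per library, the arm means of Csn3 at 0 h in UTX-AID were at least 1.58-fold lower with IAA. This rests on 6 and 3 counts without IAA. Arg1 at 0 h in BAP1-AID had 0 and 0 counts without IAA and 0 and 9 with IAA, so its arms overlapped. The ratio of its +IAA mean to the floor, 1.53, rests on 1 library. Averaged over 3 and 6 h alone, the differences were 1.35 for Lrrk1 (adjusted p = 0.0140, edgeR), 1.02 for Ptprz1 (0.0633), 0.89 for Rnf144b (0.166), 0.29 for Csn3 (0.445), 0.28 for Cpvl (0.872) and 1.03 for Arg1 (0.198). The calls for Lrrk1, Csn3 and Ptprz1 held in all 24 fits without 1 library. The Rnf144b call was lost without the first BAP1-AID +IAA replicate at 0 h (0.93). The Arg1 call was lost without the first UTX-AID -IAA replicate (2.44) or the second BAP1-AID +IAA replicate (2.06), both at 0 h. The Cpvl call was lost without either UTX-AID +IAA replicate (2.68 and 2.67), the second UTX-AID -IAA replicate (2.48) or the second BAP1-AID +IAA replicate (0.69), all at 0 h.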

How the results depend on the processing

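The number of members was 30 with a pseudocount of 1 CPM, 96 with a lower late ratio, 14 with a late ratio of 2 and 29 when the late ratio was required in each line, and 43 to 62 without 1 library. The median IAA effects over the members kept their sign at 3 h in both lines and averaged in UTX-AID. Averaged in BAP1-AID the median, 0.04, was near 0 and ran from -0.016 to 0.10 without 1 library, below 0 without the second replicate of either arm at 0 h (-0.014 without +IAA, -0.016 without -IAA). The median difference of the late steps in BAP1-AID, -0.013, was near 0 and took either sign, up to 0.04 with the offsets. The calls moved more. Shares of all genes called are not given for these other settings, so the counts of members show only how the calls moved. Without the filter on low counts 1 member was called in BAP1-AID at 0 h, 1 each in UTX-AID at 0, 3 and 6 h, and 4 in UTX-AID over all times. With GC content and transcript length offsets 0 were called in BAP1-AID at 0 h, also with the replicate block. DESeq2 called 4 in BAP1-AID at 0 h, 1 at 6 h and 1 over all times, and 1 in UTX-AID at 0 h. With all 24 libraries in the fit 1 was called in BAP1-AID over all times and 1 each in UTX-AID at 0 and 3 h. Averaging over 3 and 6 h only, an alternative chosen after seeing the data, left 1 in UTX-AID and 2 in the difference between the lines. Without 1 library, BAP1-AID gave 0 to 6 calls at 0 h (6 without the second -IAA replicate and 0 without the second +IAA replicate at 0 h), 0 to 1 at 3 h, 0 to 1 at 6 h, 0 to 3 over all times and 0 to 1 for the 0 to 6 h response. UTX-AID gave 1 to 3 over all times. The replicate block gave 3 calls in BAP1-AID at 0 h, 3 in UTX-AID over all times and 6 for the difference between the lines. Replicate numbers did not pair the libraries, since deviations of same-numbered libraries correlated at -0.035 to 0.050 in BAP1-AID and -0.018 to 0.059 in UTX-AID. The Trim17 call was lost without the filter (adjusted p = 0.0531, edgeR), with the offsets (0.0787) and by DESeq2 (0.0594), the Myl7 call with the offsets (-0.81), the Cpvl call with all 24 libraries in the fit (0.0886) and the Ptprz1 difference with the offsets (0.91). The cause was not tested. With 2 libraries in each group, small effects on members with few counts are not resolved.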
